A study of Mus musculus with 4 samples.

Results

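Complement genes were examined in the leaflets of the aortic and pulmonary (semilunar) heart valves of newborn mice, as 9 named members: C3, C4b, C1s, C1ra, C2, Cfb, Cfd, Serping1 and Cd55. The members were taken as every probe set of the array table annotated to 1 of these symbols alone. This gave 6 genes and 10 probe sets of the 45101 in the table: 1 probe set each for C1s (listed under its current symbol, C1s1), C1ra, Cfb and Serping1, and 3 each for C2 and Cd55. C4b is listed only on a probe set that also names C4a, and C3 and Cfd had no probe set under their own symbol in the annotation used here, so these 3 genes are not analysed here.

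There were 2 pools from Cxcr7-/- neonates, which lack the chemokine receptor Cxcr7 (now Ackr3), and 2 pools from wildtype littermates, labelled Control. Each pool combined the leaflets of 3 neonates on 1 Affymetrix Mouse430_2 array, with 4 to 6 leaflets from each mutant and 6 from each wildtype. From each pool, 50 ng of total RNA went through 2 cycles of amplification. The comparison asks how the absence of the receptor alters complement transcripts in the leaflet, and no label states an age, strain or sex beyond "neonate".

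Complement is a protein cascade that tags surfaces for uptake by phagocytes and can build a membrane pore. The classical pathway begins when C1q binds its target. The protease C1r then activates the protease C1s, which cleaves C4 and C2. The alternative pathway runs through factor B (Cfb), factor D (Cfd) and C3. C1 inhibitor (Serping1) blocks C1r and C1s, and CD55 on cell surfaces speeds the decay of the enzymes that cleave C3. Most soluble components are made in the liver, whereas macrophages are a main source of C1q and many stromal cells make some of the early components themselves.

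Among the measured members, Cd55 was the single gene whose Cxcr7-/- pools both lay above both Control pools, and it did so in all 3 of its probe sets, by 1.78-fold to 2.22-fold in the ratio of means. Counted by the brightest probe set per gene, this was 1 of the 5 members kept, a share close to the 21.1% of all 11260 genes kept. Serping1, C1s, C1ra and Cfb had overlapping genotypes, as did the 2 brighter probe sets of C2. No member passed the test at an adjusted p of 0.05 (limma, adjusted over 22518 probe sets; smallest member value 0.407), so the differences are given as values. That threshold was passed by 0% of all probe sets tested, with a smallest adjusted p of 0.400, and unadjusted p-values under 0.05 were found for 2279 of them.

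The pools differed in genes typical of the liver. Genes of hepatocytes, the liver cells that make most plasma proteins, varied far more between pools of 1 genotype than between genotypes. Albumin (Alb) read 105 and 22426 in Cxcr7-/- leaflets and 39028 and 2624 in Control leaflets, and alpha-fetoprotein (Afp), the albumin-like protein of fetal liver, read 293 and 24006 in Cxcr7-/- leaflets and 27146 and 5855 in Control leaflets. All 9 measured hepatocyte markers of 11 listed had the same order of pools: Control replicate 1 highest, then Cxcr7-/- replicate 2, Control replicate 2 and Cxcr7-/- replicate 1 lowest. Their summed signal was 1350.5 and 63159 in Cxcr7-/- leaflets and 95668 and 12298 in Control leaflets. In bulk pools like these, fewer cells of a type and less RNA per cell cannot be told apart.

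Markers of the labelled tissue were measured, as were markers of other cell types. All 18 listed cardiomyocyte genes and all 15 listed endothelial genes were above the filter, so being above it does not identify the tissue. All 17 listed genes of valve interstitial cells and fibroblasts were measured above the filter, among them periostin (Postn) at 52492 and 59023 in Cxcr7-/- leaflets and 58057 and 35352 in Control leaflets, and the endothelial and valve transcription factor gene Nfatc1 read 2720 and 2238 in Cxcr7-/- leaflets and 1874 and 3591 in Control leaflets. The targeted gene Ackr3 read 28.3 and 328 in Cxcr7-/- leaflets and 4936 and 5698 in Control leaflets.

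Cd55 encodes a membrane-anchored regulator that protects the cell carrying it from its own complement. Its probe set 1443906_at read 591 and 502 in Cxcr7-/- leaflets and 223 and 269 in Control leaflets. Every Cxcr7-/- pool was at least 1.86 times every Control pool there, and the log2 fold change was 1.08 ± 0.31 (SE of the limma model, n = 2 and 2 pools; unadjusted p = 0.00870, adjusted p = 0.407, limma). Probe set 1460242_at read 685 and 593 in Cxcr7-/- leaflets and 432 and 286 in Control leaflets (0.82 ± 0.33; adjusted p = 0.468, limma).

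The brightest probe set of Cd55, 1418762_at, separated the genotypes by the smallest margin. It read 1992 and 3055 in Cxcr7-/- leaflets and 1800 and 744 in Control leaflets, so that Cxcr7-/- replicate 1 was 1.11 times Control replicate 1. The log2 fold change was 1.08 ± 0.43 (adjusted p = 0.468, limma), and the 2 Control pools differed from each other by 2.42 times. With each array left out in turn this value ranged from 0.45 without Control replicate 2 to 1.70 without Control replicate 1, and in that last fit it passed, at adjusted p = 0.0237 (limma). The fit without Control replicate 1 called 673 probe sets in all. The other 2 probe sets stayed between 0.54 and 1.10 and between 0.96 and 1.21.

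Non-overlap between 2 and 2 pools is common on these arrays. Both Cxcr7-/- pools lay above both Control pools in 20.1% of the probe sets kept and below them in 22.3%. Of the 8 member probe sets kept, 3 lay above, all of Cd55, and 0 below. For genes with 3 probe sets kept, all 3 lay above in 4.74% (54 of 1139 genes), and Cd55 was 1 of these. Probe sets of 1 gene share its RNA and its array and are no replicates. Unadjusted p-values under 0.05 on the higher side were found for 3 of the 8 member probe sets, all of Cd55, against 3.94% of all probe sets kept, and on the lower side for 0, against 6.18%.

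**Figure D1:**
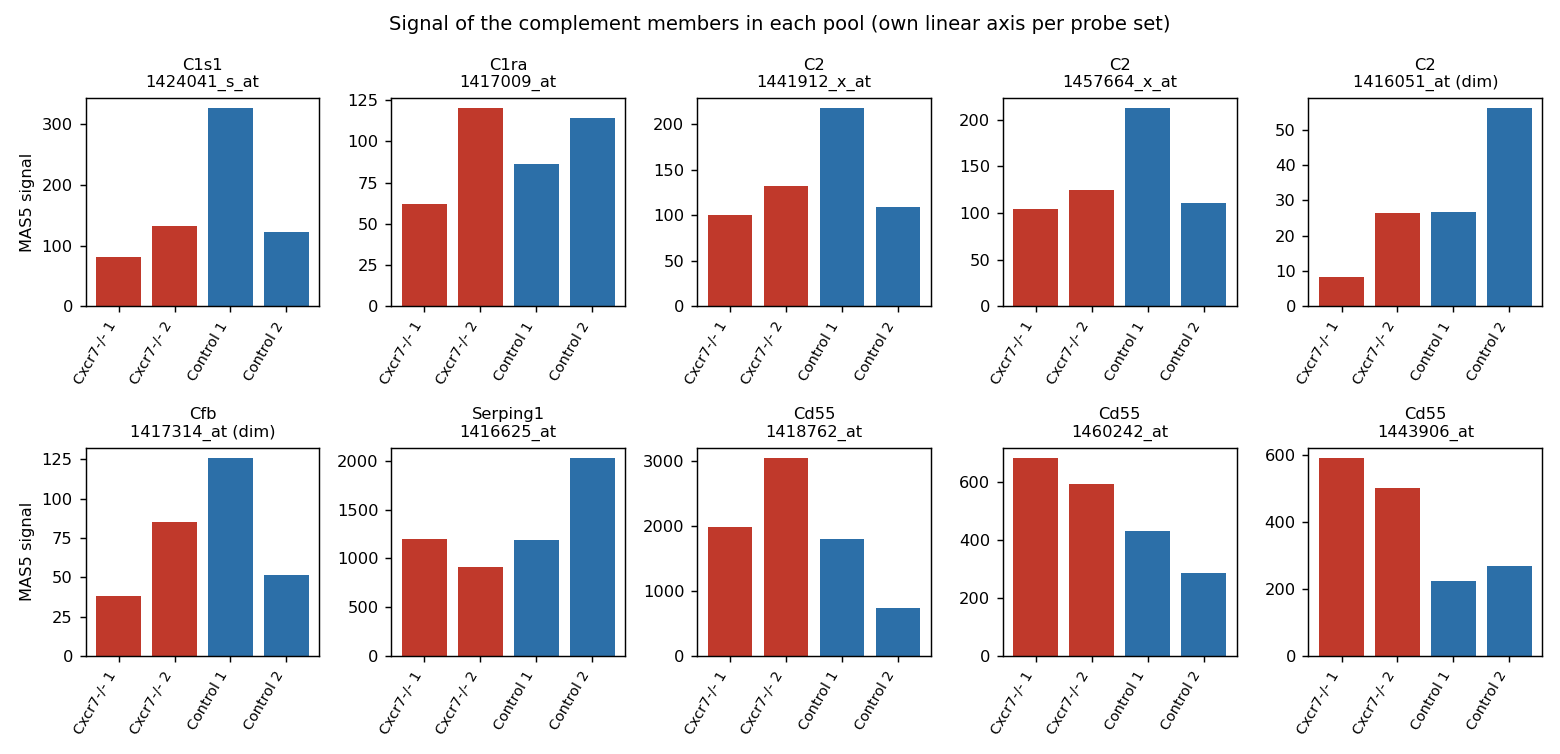
MAS5 signal of the 10 member probe sets (vertical axis, linear from 0, own scale in each panel) in the 2 Cxcr7-/- pools (red, left) and the 2 Control pools (blue, right). Each bar is 1 pool. The 3 Cd55 panels have both red bars above both blue bars, and C1s1, Cfb and the 2 brighter C2 panels have their highest bar in Control replicate 1.

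Cd55 did not have the order of pools of the hepatocyte markers in any of its 3 probe sets. Within the 2 pools lower in those markers, Cxcr7-/- replicate 1 minus Control replicate 2 was 1.39, 1.20 and 1.07 on the log2 scale for 1418762_at, 1460242_at and 1443906_at. Within the 2 pools higher in them, Cxcr7-/- replicate 2 minus Control replicate 1 was 0.76, 0.44 and 1.10. Neither pair was matched for those markers, whose summed signal was 1350.5 and 12298 in the lower pair and 63159 and 95668 in the higher. Macrophage markers had higher signal in Cxcr7-/- pools, as Cd55 did. Of 17 kept macrophage markers, 15 had both Cxcr7-/- pools above both Control pools, against 21.1% of all genes kept, and the summed signal of the 18 listed genes was 22018 and 19847 in Cxcr7-/- leaflets and 14218 and 11705 in Control leaflets. The ratio of the 3′ to the 5′ control probe set of beta-actin (Actb), a sign of RNA quality and of short amplified products, was 15.5 and 11.7 in Cxcr7-/- leaflets and 20.2 and 19.1 in Control leaflets, and so also parted the genotypes. That of Gapdh was 12.6 and 8.20 in Cxcr7-/- leaflets and 12.7 and 24.2 in Control leaflets. The part of the macrophage markers and of these ratios in the Cd55 difference was not tested.

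The 3 genes nearest to the brightest Cd55 probe set, by Euclidean distance between mean-centred log2 profiles over the 4 pools and among 11259 other genes, were Dock2 at 0.18, Ect2 at 0.19 and Hpgd at 0.24. Dock2, a regulator of leukocyte migration, read 124 and 190 in Cxcr7-/- leaflets and 118 and 40.1 in Control leaflets. Ect2, which acts in cytokinesis, read 1281 and 1792 in Cxcr7-/- leaflets and 1096 and 518 in Control leaflets. Hpgd, an enzyme that breaks down prostaglandins, read 743 and 1064 in Cxcr7-/- leaflets and 648 and 316 in Control leaflets.

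The sequence just before the transcription start is shown for 3 members. These are the members with both a probe set and an entry in the RefSeq promoter table (GRCm38.p6). A link between sequence and signal was not tested. Each run is the 250 bases before the annotated start, 5′ to 3′ on the gene's strand, and capitals mark matches to the motifs searched. Cd55 lies at chr1:130462745-130462994 on the minus strand, C1ra at chr6:124512371-124512620 on the plus strand, and C1s1 at chr6:124542360-124542609 on the minus strand for the more upstream of its 2 starts.
Cd55: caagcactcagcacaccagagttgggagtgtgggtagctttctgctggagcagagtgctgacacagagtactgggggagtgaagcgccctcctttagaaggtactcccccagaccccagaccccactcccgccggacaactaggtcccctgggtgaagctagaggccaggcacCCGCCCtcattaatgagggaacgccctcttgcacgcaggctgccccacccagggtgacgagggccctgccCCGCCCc
C1ra: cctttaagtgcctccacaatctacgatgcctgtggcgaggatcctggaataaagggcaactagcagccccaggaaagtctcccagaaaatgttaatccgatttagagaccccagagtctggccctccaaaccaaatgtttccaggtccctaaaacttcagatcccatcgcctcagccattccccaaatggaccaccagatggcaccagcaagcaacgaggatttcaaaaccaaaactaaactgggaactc
C1s1: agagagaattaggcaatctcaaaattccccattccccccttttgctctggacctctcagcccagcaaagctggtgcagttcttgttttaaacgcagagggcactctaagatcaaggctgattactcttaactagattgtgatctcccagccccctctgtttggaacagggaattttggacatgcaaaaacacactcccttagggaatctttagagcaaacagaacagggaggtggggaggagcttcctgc

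The motifs searched on both strands were the gamma-activated site TTCNNNGAA, the core of the interferon-stimulated response element GAAANNGAA, the cyclic AMP response element TGACGTCA, the AP-1 site TGANTCA and the GC box GGGCGG. They occur in 7.02%, 7.13%, 1.55%, 6.75% and 32.7% of the 32851 promoter windows of the same length, and matches of the first 2 can share letters. Cd55 held 2 GC boxes, from base -77 to base -72 and from base -7 to base -2 before the start, and none of the other 4 motifs. C1ra and C1s1 held none of the 5. The GC content was 64.0% for Cd55, 49.6% for C1ra and 48.0% for the C1s1 start shown. A match is a run of letters and no measured site.

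The initiating proteases of the classical pathway were dim and overlapped between genotypes. C1s, which cleaves C4 and C2, read 80.9 and 133 in Cxcr7-/- leaflets and 327 and 122 in Control leaflets. Control replicate 1 stood above the other 3 pools, which lay within 80.9 to 133. The log2 fold change was -0.83 ± 0.51 (adjusted p = 0.620, limma), and it was -0.19 without Control replicate 1 and -1.47 without Control replicate 2. The suffix of its probe set, 1424041_s_at, marks probes that can match more than 1 transcript, and the mouse has a close copy of the gene (C1s2), so the signal may hold both.

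C1ra encodes a mouse C1r, the protease that activates C1s. It read 62.3 and 120 in Cxcr7-/- leaflets and 86.2 and 114 in Control leaflets, and the genotypes were interleaved (-0.15 ± 0.45; adjusted p = 0.934, limma). The direction turned without Cxcr7-/- replicate 1, at 0.23, and without Control replicate 2, at 0.017. C1ra did not have the order of pools of C1s.

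C2 is the protein that C1s cleaves to form the classical C3 convertase. Its probe set 1441912_x_at read 99.7 and 132 in Cxcr7-/- leaflets and 218 and 109 in Control leaflets, and 1457664_x_at read 104 and 125 in Cxcr7-/- leaflets and 213 and 111 in Control leaflets. Control replicate 1 was again alone at the top. Both had a log2 fold change of -0.37, with SEs of 0.44 and 0.42 and adjusted p of 0.801 and 0.797 (limma), and both turned positive without Control replicate 1, at 0.062 and 0.034. The suffix _x_at marks probes that may bind other sequences. The third C2 probe set, 1416051_at, was under the filter with 8.24 and 26.3 in Cxcr7-/- leaflets and 26.7 and 56.2 in Control leaflets, values near the pseudocount of 22. Both Cxcr7-/- pools lay below both Control pools there, by 26.3 against 26.7 at the closest.

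Cfb encodes factor B, the C2-like protease of the alternative pathway and a neighbour of C2 in the MHC region. Its probe set was also under the filter, at 38.3 and 84.9 in Cxcr7-/- leaflets and 126 and 51.7 in Control leaflets. Fitted without the filter it was at -0.38 ± 0.63 (adjusted p = 0.915, limma). The genotypes overlapped, and Control replicate 1 was the highest pool.

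C1s, Cfb and the 2 kept C2 probe sets thus shared the pool order of the hepatocyte markers, in rank only. C1s read 133 in Cxcr7-/- replicate 2 and 122 in Control replicate 2, and C2 1457664_x_at read 125 and 111. Alb read 22426 and 2624 in those 2 pools. Counted by 1 probe set per gene, 2 of the 5 members kept (C1s and C2) had this order, against 4.42% of the 11260 genes kept, a comparison chosen after the values were seen. Within the 2 pools lower in hepatocyte markers, Cxcr7-/- replicate 1 minus Control replicate 2 was -0.49 for C1s, -0.11 for C2 and -0.29 for Cfb on the log2 scale. Within the 2 higher pools, Cxcr7-/- replicate 2 minus Control replicate 1 was -1.17, -0.64 and -0.47. The marker sums differed within each pair (1350.5 and 12298, then 63159 and 95668, Cxcr7-/- first), so liver signal was not held equal. The part of liver RNA in these signals was not tested.

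**Figure D2:**
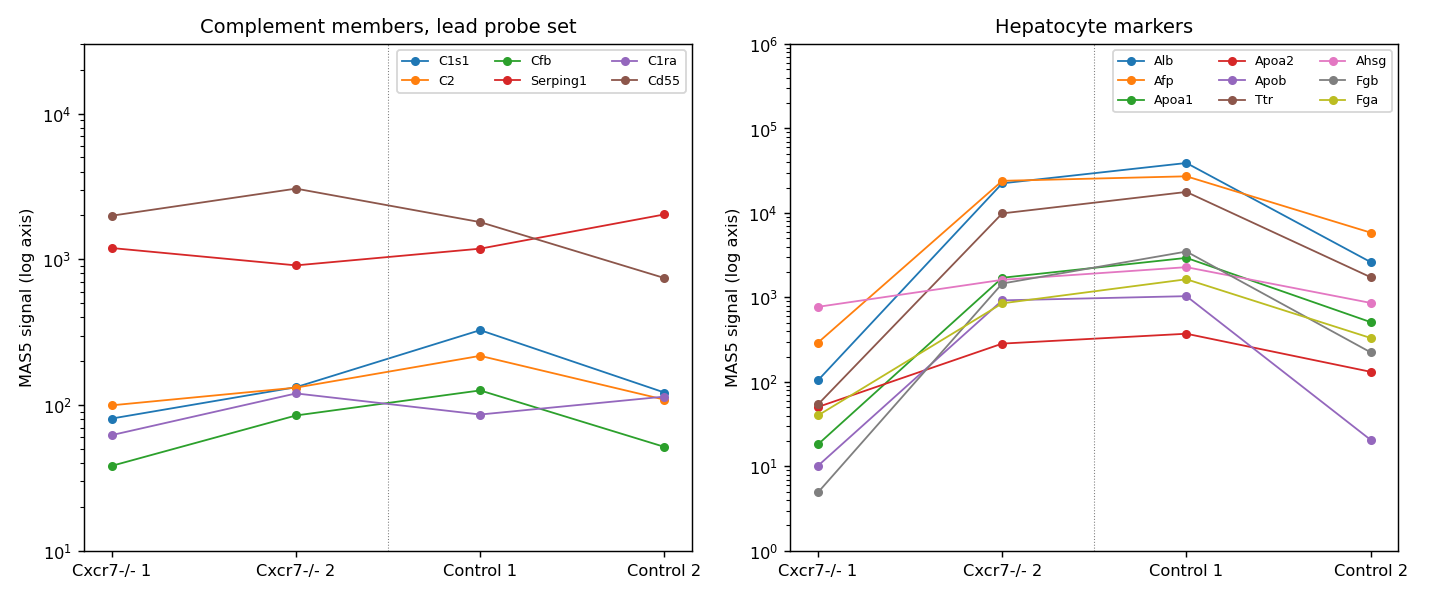
MAS5 signal (log axis) of the brightest probe set of each complement member (left panel) and of 9 hepatocyte markers (right panel) in the 2 Cxcr7-/- pools and, right of the dotted line, the 2 Control pools. Points are single pools and lines only join the values of 1 gene. The hepatocyte markers are highest in Control replicate 1 and lowest in Cxcr7-/- replicate 1, an order that C1s1, C2 and Cfb share and Cd55, Serping1 and C1ra do not.

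Serping1, the inhibitor of C1r and C1s, read 1195 and 909 in Cxcr7-/- leaflets and 1183 and 2032 in Control leaflets. Control replicate 2 was the high pool, and the other 3 lay within 909 to 1195, so the genotypes overlapped. The log2 fold change was -0.56 ± 0.33 (adjusted p = 0.612, limma). It was -0.18 without Control replicate 2 and -0.95 without Control replicate 1, so its size rested on the Control pool used.

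Over the 5 member genes kept, 1 was positive and 4 were negative, with a median log2 fold change of -0.37, against 0.00477 over 11260 genes with 1 probe set each. The SD of the member median between pools of 1 genotype was 0.23. These counts describe the 5 members that passed the filter and leave out Cfb, which did not.

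**Figure D3:**
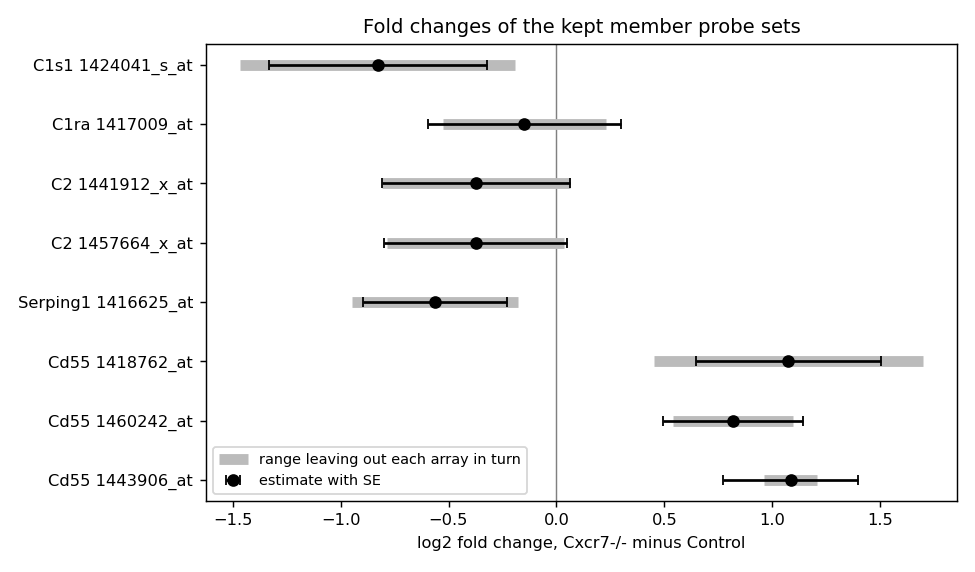
Log2 fold change (Cxcr7-/- minus Control, horizontal axis) of the 8 member probe sets kept. Points and thin bars are the limma estimate and its SE with 2 and 2 pools, and grey bars span the values with each array left out in turn. The 3 Cd55 grey bars stay right of 0 and those of C1s1 and Serping1 stay left of it, while those of C1ra and C2 cross it.

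Other genes of the complement system were listed with earlier results of these data known, and 38 of the 46 had a probe set of their own. Of these, 18 genes were kept. None passed at an adjusted p of 0.05 (smallest 0.406, limma). With 1 probe set per gene, both Cxcr7-/- pools lay above both Control pools in 5 and below in 6, where the shares over all genes kept were 21.1% and 19.1%. The median log2 fold change of the 18 was -0.19.

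Among the recognition proteins, C1q, which starts the classical pathway, had higher signal in Cxcr7-/- pools for C1qb. Its probe set 1417063_at read 742 and 735 in Cxcr7-/- leaflets and 362 and 374 in Control leaflets, which gave 0.96 ± 0.28 (adjusted p = 0.412, limma). All 3 C1qb probe sets kept the genotypes apart, and the other 2 were at 0.80 ± 0.27 and 1.06 ± 0.36. The other chains were less clearly separated. C1qc read 713 and 445 in Cxcr7-/- leaflets and 358 and 383 in Control leaflets (0.58 ± 0.33), and C1qa read 538 and 365 in Cxcr7-/- leaflets and 256 and 393 in Control leaflets, where the genotypes overlapped. Macrophages are a main source of C1q, and the macrophage markers given above moved the same way; their part in the C1qb difference, and that of the 3′ to 5′ ratios, was not tested.

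Of the lectin pathway, which recognises sugars on surfaces, Colec11 (collectin 11) read 459 and 409 in Cxcr7-/- leaflets and 856 and 960 in Control leaflets. It was lower in each Cxcr7-/- pool than in each Control pool, at -1.03 ± 0.28 (unadjusted p = 0.00685, adjusted p = 0.406, limma), and stayed between -1.11 and -0.95 with each array left out. Masp1, the protease that travels with the collectins, read 194 and 300.4 in Cxcr7-/- leaflets and 446 and 367 in Control leaflets (-0.70 ± 0.35). Its other kept probe set was at -0.72 ± 0.45 and lay lower as well. The remaining Masp1 probe sets were under the filter, and the genotypes overlapped in each of them.

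Properdin (Cfp), which stabilises the alternative convertase, read 197 and 319.5 in Cxcr7-/- leaflets and 590.3 and 377 in Control leaflets (-0.85 ± 0.38; adjusted p = 0.501, limma). Its second probe set, 1452279_at, was under the filter and lay on the other side, with 127 and 46.7 in Cxcr7-/- leaflets and 29.5 and 41.2 in Control leaflets (0.83 ± 0.61, fitted without the filter), so the Cfp probe sets disagreed in direction. The C5 gene (Hc) read 68.1 and 201 in Cxcr7-/- leaflets and 169 and 125 in Control leaflets, with overlap. C6, C8a, C8b, C8g and C9, which build the membrane pore, were all under the filter.

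Among the regulators, clusterin (Clu), a secreted chaperone that also binds the forming pore, was bright and lower in both Cxcr7-/- pools in all 4 probe sets. Its probe set 1454849_x_at read 20503 and 19722 in Cxcr7-/- leaflets and 28310 and 28650 in Control leaflets (-0.50 ± 0.19; adjusted p = 0.459, limma), and the other 3 ranged from -0.54 to -0.17. Cd59a, a membrane protein that blocks the pore, read 657 and 830.5 in Cxcr7-/- leaflets and 1128 and 1096 in Control leaflets (-0.58 ± 0.28; adjusted p = 0.524, limma). Its second probe set was at -0.64 ± 0.37, so this surface regulator was on the opposite side to Cd55 in both of its probe sets. Cr1l (Crry), the other main rodent regulator of the C3 convertase on cell surfaces, read 2443 and 2045 in Cxcr7-/- leaflets and 1898 and 1712 in Control leaflets (0.31 ± 0.25), while its other kept probe set was at -0.73 ± 0.55 with overlap. The Cr1l probe set under the filter, 1438920_x_at, lay lower, at 6.28 and 33.9 in Cxcr7-/- leaflets and 87.3 and 46.8 in Control leaflets.

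Cfi, the protease that inactivates C3b and C4b, and vitronectin (Vtn), a plasma protein that binds the pore, were named after their values were seen. Cfi read 70.9 and 675 in Cxcr7-/- leaflets and 1184 and 413 in Control leaflets, and Vtn read 8.52 and 317 in Cxcr7-/- leaflets and 582 and 138 in Control leaflets. Both had the pool order of the hepatocyte markers in their brightest probe set, as did the mannose-binding lectin gene Mbl2. These 3 were the genes of that order among the 18, where 4.42% of all 11260 genes kept had it. The second Vtn probe set was under the filter and did not have that order. It read 54.9 and 74.0 in Cxcr7-/- leaflets and 133 and 35.8 in Control leaflets.

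Of the receptors, the C3a receptor gene C3ar1 read 222 and 198 in Cxcr7-/- leaflets and 187 and 28.8 in Control leaflets (1.17 ± 0.63; adjusted p = 0.581, limma). Its separation rested on Control replicate 2: without that array the value was 0.15. The genotypes overlapped in both other C3ar1 probe sets: 1419482_at read 158 and 132 in Cxcr7-/- leaflets and 143 and 18.1 in Control leaflets, and 1419483_at, under the filter, read 117 and 82.2 in Cxcr7-/- leaflets and 90.6 and 7.63 in Control leaflets. The C1q-receptor-like endothelial protein gene Cd93 read 4770 and 4383 in Cxcr7-/- leaflets and 4824 and 5248 in Control leaflets (-0.14 ± 0.22).

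**Figure D4:**
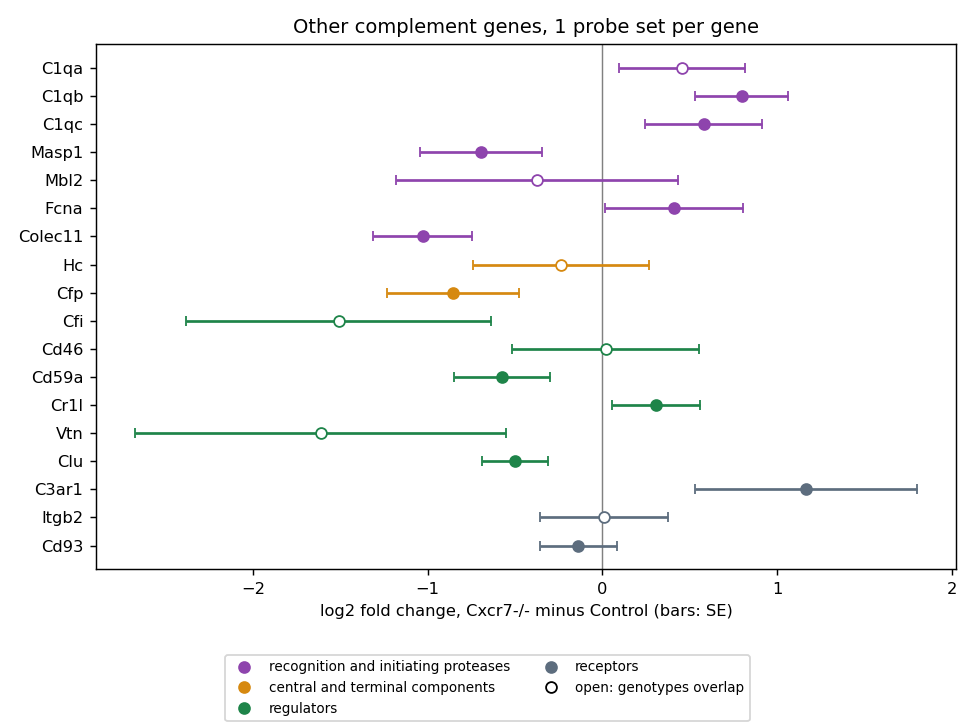
Log2 fold change (Cxcr7-/- minus Control) of the 18 other complement genes kept, 1 probe set per gene, with SE bars (2 and 2 pools). Colours give the role, filled points mark genes whose genotypes do not overlap, and open points mark overlap. C1qb lies right of 0 and Colec11, Cfp, Cd59a and Clu lie left of it, while Cfi and Vtn have the widest bars.

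Genes of interferon and inflammatory signalling, which can induce several complement components, were described beside them. Over all genes kept, 21.1% had both Cxcr7-/- pools above both Control pools and 19.1% below. Of 15 interferon-stimulated genes kept, 9 had both Cxcr7-/- pools above both Control pools and 1 below, with a median log2 fold change of 0.61. Irf9, which joins STAT proteins to drive interferon targets, read 655 and 607 in Cxcr7-/- leaflets and 326 and 280 in Control leaflets. Of 12 acute-phase and NF-kB output genes kept, 1 lay above and 4 below, with a median log2 fold change of -0.35.

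Marker lists of further cell types also differed between pools. Cardiomyocyte markers summed to 101090 and 149142 in Cxcr7-/- leaflets and 186248 and 266302 in Control leaflets, and smooth muscle markers to 16441 and 21034 in Cxcr7-/- leaflets and 25923 and 34877 in Control leaflets. Lung epithelium markers summed to 1512 and 1853 in Cxcr7-/- leaflets and 4807 and 9676 in Control leaflets. Endothelial markers summed to 21617 and 20686 in Cxcr7-/- leaflets and 26742 and 34062 in Control leaflets. Control replicate 2 was the highest pool of all these lists, as it was for Serping1. Both Cxcr7-/- pools lay below both Control pools in 15 of 18 kept cardiomyocyte genes and 5 of 7 kept smooth muscle genes. The same held in 4 of 5 kept lung epithelium genes and 9 of 15 kept endothelial genes, against 19.1% of all genes kept. In each of these lists 0 genes lay above. The part of these cell types in the values of Serping1, Clu, Cd59a, Colec11, Masp1 and Cfp was not tested. Mesothelium and epicardium markers summed to 2331 and 3797 in Cxcr7-/- leaflets and 3276 and 3334 in Control leaflets. Adipocyte markers summed to 2543 and 3452 in Cxcr7-/- leaflets and 5130.5 and 3790 in Control leaflets. The brightest of them, Fabp4, read 1381 and 2357 in Cxcr7-/- leaflets and 3483 and 2307 in Control leaflets, with overlap. The adipocyte-defining gene Adipoq was under the filter, at 2.63 and 22.4 in Cxcr7-/- leaflets and 88.0 and 90.3 in Control leaflets. Of 3 kept adipocyte genes, 0 lay above and 0 below.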

How the data were processed

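The values are the authors' deposited intensity signals, 1 per probe set and array on a linear scale; per the submitters' processing notes they come from Affymetrix Expression Console and MAS5, with software versions not given in the sources used here. Once the top and bottom 2% of probe sets were left out, the mean was 500.003 on each of the 4 arrays, as scaling to a common target gives. Since MAS5 subtracts a background, dim values have large relative errors. The 3′ to 5′ ratios of the Actb control probe sets were 11.7 to 15.5 in Cxcr7-/- pools and 19.1 to 20.2 in Control pools. The number of arrays limits the precision, and 2 against 2 pools cannot give an exact permutation p below 0.333.

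After 64 control probe sets were set aside, 45037 remained. Signals were taken as log2(signal + 22), 22 being the 25th percentile of all values, and probe sets with a mean above the median were kept (22518). Genotypes were compared over all of these with limma 3.58.1 in R 4.3.3 (lmFit, eBayes with intensity trend, two-sided, Benjamini-Hochberg), with 5.85 prior and 2 residual degrees of freedom; the fit was tested on simulated data. Log2 fold changes are Cxcr7-/- minus Control. Symbols came from the array's annotation: 34945 probe sets had 1 symbol, 932 several and 9160 none, and the brightest probe set stood for a gene in lists.

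The members, lists and tests were chosen with earlier results of these data known. Named genes were the members, Ackr3, the other complement genes of smallest unadjusted p up to 8 with C1qa, C1qb, C1qc, Clu, Cd59a, Hc and C3ar1, the nearest profiles to Cd55, and the brightest markers of each list; other genes named, and the comparison with hepatocyte order, were chosen after their values were seen. The alternatives tried were 2 pseudocounts, 2 filters, 2 scalings, no intensity trend, a replicate block, each array left out, and the median over a gene's probe sets. Deviations of same-numbered pools from their genotype means correlated at r = -0.26 across probe sets, and no label ties numbers to a litter or day, so pools were not paired.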

Additional observations from a re-analysis of the deposited data

How the results depend on the processing

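The count of probe sets past an adjusted p of 0.05 was 0 under the other pseudocounts, filters and scalings, without the intensity trend (2296 at an unadjusted p under 0.05) and with a replicate block in the fit. It ranged from 0 to 673 with 1 array left out: 673 without Control replicate 1, 8 without Cxcr7-/- replicate 2 and 0 otherwise. With the replicate numbers crossed between genotypes, chosen after the data were seen, 5 probe sets passed. The replicate block moved the count at an unadjusted p under 0.05 to 1730, against 2279. Of the members, 0 passed under every setting except without Control replicate 1, where 1 did (Cd55 1418762_at), a range of 0 to 1. The number of member genes with both Cxcr7-/- pools above both Control pools was 1 in every alternative with all arrays. With 1 array left out it ranged from 1 to 2. That of genes below was 0 in every alternative with all arrays and ranged from 1 to 3 with 1 array left out. Leaving out an array sets 1 pool against 2, where pools part more easily, so its counts cannot be set beside those of all arrays. The member median of -0.37 was 0.26 at the 75th percentile filter, where 2 genes (Cd55 and Serping1) remain, and ranged from -0.53 to -0.18 with 1 array left out. With 1 array left out, C1ra ranged from -0.53 to 0.23, C2 1441912_x_at from -0.81 to 0.062 and C2 1457664_x_at from -0.78 to 0.034, with the direction turned for C1ra without Cxcr7-/- replicate 1 or Control replicate 2 and for C2 without Control replicate 1; apart from the smaller number of samples, the cause was not tested. Dim signal limits C1ra, C2 and Cfb.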

Other observations

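Genes of neutrophil granules had the pool order of the hepatocyte markers in 4 of 5 kept genes, against 4.42% of all 11260 genes kept. This order was chosen after the values were seen. The calgranulin gene S100a8 read 234 and 630.4 in Cxcr7-/- leaflets and 852 and 252 in Control leaflets, and the neutrophilic granule protein gene Ngp read 92.5 and 643 in Cxcr7-/- leaflets and 732 and 154 in Control leaflets. Of the 2 erythroid genes kept, 1 had the pool order of the hepatocyte markers. That was the anion exchanger gene Slc4a1, which read 322 and 986 in Cxcr7-/- leaflets and 1203 and 437 in Control leaflets. The newborn liver still makes blood cells, as background. Among the hepatocyte markers, the lipid carrier gene Apob read 10.2 and 924 in Cxcr7-/- leaflets and 1036 and 20.6 in Control leaflets. The blood protein genes Ttr and Fgb, a thyroid hormone carrier and a fibrinogen chain, read 54.3 and 9879 and then 4.94 and 1461 in Cxcr7-/- leaflets, and 17730 and 1738 and then 3494 and 224 in Control leaflets. Where this RNA came from was not tested.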
